A study of Mus musculus with 6 samples.

Results

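Hba-a1, Hba-a2, Hbb-bs, Hbb-bt and Alas2 are the adult globin genes and the erythroid 5-aminolevulinate synthase gene of the mouse, and their RNA was measured by RNA-seq in the liver. They were taken by gene symbol from the deposited tables, and all 5 were found among the 20673 genes listed and among the 13105 with enough counts to test. The livers came from C57BL/6J mice of around 12 weeks, 3 fed a regular diet (RD) and 3 fed a high-cholesterol diet (HCD) for 3 days, with 1 library per liver. The HCD was also richer in fat and contained sodium cholate, a bile salt, so the parts of cholesterol, fat and cholate cannot be told apart. No transgene or drug treatment is named for either group. The study used mice of both sexes, and the labels used here do not give the sex of each animal. The question for these genes was whether red cell RNA in the liver differed between the diets.

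Haemoglobin is a tetramer of alpha and beta globin chains, each of which holds a haem group. Its genes are transcribed in red cell precursors, which in adult mice sit in the bone marrow and spleen, and the RNA persists for a short time in reticulocytes, the youngest red cells of the blood. Alas2 encodes the erythroid form of 5-aminolevulinate synthase, the enzyme that opens haem synthesis in those precursors, whereas Alas1 serves the liver and most other tissues. In whole liver, fewer cells of a type and less RNA per cell cannot be told apart.

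The globin genes come in near-identical pairs, which bears on every count given for a single one of them. Hba-a1 (ENSMUSG00000069919) lies at chr11:32283511-32284465 and Hba-a2 (ENSMUSG00000069917) at chr11:32296489-32297298, both on the plus strand of GRCm38 in GENCODE M21. Hbb-bs (ENSMUSG00000052305, chr7:103826534-103828096) and Hbb-bt (ENSMUSG00000073940, chr7:103812524-103813996) lie on the minus strand. Alas2 (ENSMUSG00000025270) lies at chrX:150547375-150570638 on the plus strand. The coding sequences of Hba-a1 and Hba-a2 differed at 1 of 426 bases, and those of Hbb-bs and Hbb-bt at 1 of 441. The stretches shown here are 60 coding bases of each pair around that base, which stands in capitals, from base 351 to 410 of the alpha genes and from base 382 to 441 of the beta genes.
Hba-a1: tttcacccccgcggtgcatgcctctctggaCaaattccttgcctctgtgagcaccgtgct
Hba-a2: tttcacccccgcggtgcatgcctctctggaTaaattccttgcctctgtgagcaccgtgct
Hbb-bs: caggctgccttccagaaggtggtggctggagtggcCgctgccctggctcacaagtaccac
Hbb-bt: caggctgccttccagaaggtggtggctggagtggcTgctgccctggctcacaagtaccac

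Of all stretches of 100 bases in the annotated transcripts, Hba-a1 shared 63.3% with Hba-a2, and Hba-a2 shared 79.5% with Hba-a1. Hbb-bs shared 49.7% with Hbb-bt, and Hbb-bt shared 54.8% with Hbb-bs. Alas2 shared none with these 4 genes. The sources used here do not give the read length or the treatment of reads that could come from either gene of a pair. The level of a single globin gene is therefore uncertain, and each pair was also tested with its counts summed.

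The promoters are shown because the globins and Alas2, all erythroid genes, had different profiles over the livers. Each window holds the 250 bases before the RefSeq start of the gene (GRCm38.p6), 5′ to 3′ along the gene's strand. Hba-a2 is shown for both alpha genes, since 247 of 247 aligned bases of the Hba-a1 window were identical at an offset of 3 bases. Capitals mark 4 motifs, searched on both strands. The GATA motif was read as the word AGATAA, the word AGATAG, the word TGATAA or the word TGATAG. The CACCC motif was read as the word CCACCC or the word ACACCC, and the CCAAT motif as those letters. The TATA motif was read as the word ATATAA, the word TTATAA or the word ATAAAA. The GENCODE M21 gene models of all 5 genes start inside these windows, upstream of the RefSeq starts.
Hba-a2 (chr11:32296242-32296491, plus strand): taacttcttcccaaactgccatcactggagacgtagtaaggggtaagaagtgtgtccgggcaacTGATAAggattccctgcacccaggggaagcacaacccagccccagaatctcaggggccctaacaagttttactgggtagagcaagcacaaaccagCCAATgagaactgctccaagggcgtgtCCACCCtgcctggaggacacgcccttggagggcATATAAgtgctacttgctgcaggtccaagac
Hbb-bs (chr7:103827929-103828178, minus strand): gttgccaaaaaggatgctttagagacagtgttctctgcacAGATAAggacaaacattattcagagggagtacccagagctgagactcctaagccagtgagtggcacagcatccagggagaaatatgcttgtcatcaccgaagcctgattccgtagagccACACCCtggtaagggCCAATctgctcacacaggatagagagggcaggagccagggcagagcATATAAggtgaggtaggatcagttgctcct
Hbb-bt (chr7:103813924-103814173, minus strand): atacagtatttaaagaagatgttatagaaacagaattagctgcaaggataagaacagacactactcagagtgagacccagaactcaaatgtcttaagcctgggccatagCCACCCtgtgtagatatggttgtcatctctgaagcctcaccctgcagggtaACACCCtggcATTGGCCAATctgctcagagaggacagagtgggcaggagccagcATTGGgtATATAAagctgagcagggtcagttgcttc
Alas2 (chrX:150547167-150547416, plus strand): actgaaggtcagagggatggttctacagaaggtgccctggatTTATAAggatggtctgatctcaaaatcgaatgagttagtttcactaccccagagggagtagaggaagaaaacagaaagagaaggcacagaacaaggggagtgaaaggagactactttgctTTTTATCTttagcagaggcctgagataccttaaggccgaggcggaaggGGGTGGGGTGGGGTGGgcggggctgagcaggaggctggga

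The windows of Hba-a1, Hba-a2 and Hbb-bs each held 1 match to every motif, with the GATA match farthest from the start and the TATA match nearest to it. Hbb-bt held 2 CACCC, 3 CCAAT and 1 TATA match and no GATA match. Alas2 held 1 GATA match and 3 adjoining CACCC matches, all on the opposite strand, and no CCAAT match. Its 3 TATA matches included TTATAA, which counts on both strands, and 1 that overlapped the GATA match. Of 32851 mouse promoter windows of the same length, 26.5% held a GATA match, 37.6% a CACCC match, 33.8% a CCAAT match and 24.8% a TATA match. All 4 motifs together were found in 0.962% of them. A match describes the letters of the window only, and no binding was measured.

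The libraries held 13771630 to 23129576 counts per liver, and 428 of the 13105 genes tested passed an adjusted p of 0.05 (called genes) in the quasi-likelihood F test of edgeR, adjusted by the method of Benjamini and Hochberg, 255 of them higher and 173 lower with HCD. Albumin and the other 5 hepatocyte markers summed to 84505 to 117913 CPM (counts scaled to a common library total with TMM factors) with RD and 92076 to 132330 with HCD, in keeping with the tissue label. HCD replicate 1 stood apart, as it alone had counts for Xist (5032, against 0 in the other 5 livers) and had 0 counts for the 4 Y-linked genes examined. Tests of the 5 genes are therefore also given without that liver, as are the counts and ratios of the lists where it changed them. Values of single livers are listed in the order of replicates 1, 2 and 3. P-values measure the spread between these 6 livers. No batch is named in the labels. The library names start with A for the RD livers and with Liver for the HCD livers, for a reason that is not stated. Any difference in handling that went with these names cannot be told apart from diet.

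An alpha and a beta globin gene rose with HCD. Hba-a1 rose 5.30-fold and Hbb-bs 4.87-fold, and both were called. Hbb-bt had a fold of similar size (6.08) and was not called, Hba-a2 had a fold of 2.01 and was not called, and Alas2 had a fold of 0.615 with values that overlapped between the diets. Of the 5 genes, 2 were called, both higher, against 3.27% of all genes tested that were called and 1.95% that were called higher. In 3 of the 5, all globins, the values of the diets did not overlap, against 27.6% of the genes tested.

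**Figure D1:**
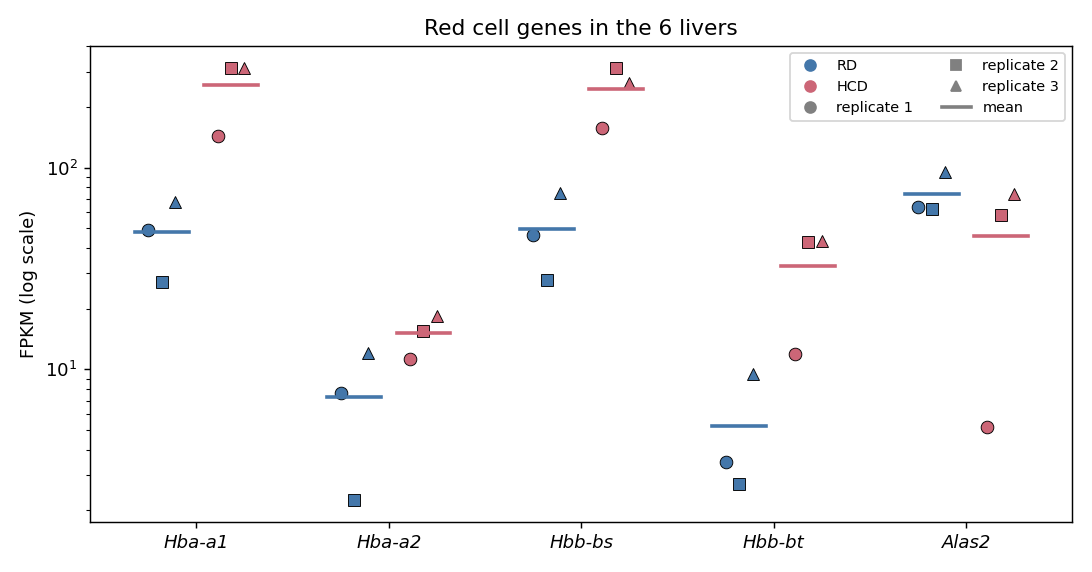
FPKM (log scale) of the 4 globin genes and Alas2 in each liver, with RD in blue, HCD in red, 1 symbol per replicate and a bar at the mean of each diet. All HCD values of Hba-a1, Hbb-bs and Hbb-bt lie above all RD values, and Alas2 of HCD replicate 1 lies far below the other livers, at 5.17 FPKM.

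Hba-a1, which encodes an alpha globin chain, had 27.3, 15.3 and 36.7 CPM in the RD livers. It had 77.0, 175.9 and 169.3 CPM in the HCD livers. Every HCD liver was above every RD liver, and HCD replicate 1 was the lowest of the HCD livers. The means were 26.4 ± 10.7 CPM (SD, n = 3) with RD and 140.7 ± 55.3 CPM with HCD. The fit gave a log2 fold change (HCD over RD) of 2.41, with a standard error of 0.39, a 95% interval of 1.53 to 3.29 and an edgeR adjusted p of 0.0217. The exact two-sided permutation test of the 6 log2 values gave p = 0.1, the smallest that 3 livers against 3 allow. Without HCD replicate 1 the log2 fold change was 2.70 (edgeR adjusted p = 0.00849). The call was lost without RD replicate 1 (edgeR adjusted p = 0.112), RD replicate 2 (0.0754) or HCD replicate 3 (0.0743), where the log2 fold change stayed between 2.13 and 2.43.

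Hba-a2, the second alpha globin gene, had far fewer counts than Hba-a1. It had 3.50, 1.04 and 5.37 CPM in the RD livers and 4.99, 7.16 and 8.17 CPM in the HCD livers. HCD replicate 1 lay below RD replicate 3, so that the diets overlapped. The means were 3.31 ± 2.17 CPM (SD, n = 3) with RD and 6.77 ± 1.62 CPM with HCD. Its log2 fold change was 1.01 (standard error 0.51, 95% interval -0.15 to 2.17; edgeR adjusted p = 0.299), and it was 1.19 without HCD replicate 1 (edgeR adjusted p = 0.279). The exact two-sided permutation test gave p = 0.2. With the counts of both alpha genes summed, most of them those of Hba-a1, the log2 fold change was 2.31 (edgeR adjusted p = 0.0256).

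Hbb-bs, which encodes a beta globin chain, had 24.5, 14.8 and 38.5 CPM in the RD livers. In the HCD livers it had 80.4, 166.3 and 134.1 CPM. The order of the livers was that of Hba-a1 within RD, and HCD replicate 1 was again the lowest HCD liver while still above every RD liver. The means were 26.0 ± 11.9 CPM (SD, n = 3) with RD and 126.9 ± 43.4 CPM with HCD. The log2 fold change was 2.28 (standard error 0.37, 95% interval 1.44 to 3.13) and the edgeR adjusted p was 0.0223. The exact two-sided permutation test gave p = 0.1. Without HCD replicate 1 the log2 fold change was 2.53 (edgeR adjusted p = 0.0144). As for Hba-a1, the call was lost without RD replicate 1 (edgeR adjusted p = 0.112), RD replicate 2 (0.0745) or HCD replicate 3 (0.0744).

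Hbb-bt, the second beta globin gene, had 1.68, 1.32 and 4.46 CPM in the RD livers. It had 5.55, 20.7 and 20.4 CPM in the HCD livers. The diets did not overlap, but HCD replicate 1 lay much nearer to RD replicate 3 than to the other HCD livers. The means were 2.49 ± 1.72 CPM (SD, n = 3) with RD and 15.5 ± 8.66 CPM with HCD. The log2 fold change was 2.60 (standard error 0.60, 95% interval 1.24 to 3.96), and its edgeR adjusted p of 0.0552 did not pass the threshold. The exact two-sided permutation test gave p = 0.1. Hbb-bt was called without HCD replicate 1, at a log2 fold change of 3.01 (edgeR adjusted p = 0.0212), and with DESeq2 at 2.61 (adjusted p = 5.55e-06). With the counts of both beta genes summed, most of them those of Hbb-bs, the log2 fold change was 2.32 (edgeR adjusted p = 0.0246).

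Alas2 followed another pattern. It had 105.2, 104.9 and 153.4 CPM in the RD livers and 8.22, 96.8 and 119.1 CPM in the HCD livers. HCD replicate 3 lay within the RD range and HCD replicate 2 just below it, and HCD replicate 1 was 14.1-fold below the mean of the other 5 livers. The means were 121.1 ± 27.9 CPM (SD, n = 3) with RD and 74.7 ± 58.6 CPM with HCD. The log2 fold change was -0.70 (standard error 0.71, 95% interval -2.32 to 0.92), with an edgeR adjusted p of 0.613. The exact two-sided permutation test gave p = 0.4. Without HCD replicate 1 the log2 fold change was -0.17 (edgeR adjusted p = 0.693).

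The low Alas2 value belonged to the liver that carried Xist counts and no Y-linked counts. On the log2 scale, Alas2 in HCD replicate 1 lay 3.72 below the mean of the other 5 livers, the 43rd lowest such difference of 13105 genes. Alas2 is X-linked, and the median of this difference over 384 X-linked genes was 0.063. Only 1 of the 6 livers was of this kind, and the part of sex in the value cannot be told apart from that single animal. Hba-a1, Hbb-bs and Hbb-bt of HCD replicate 1 were the lowest of the HCD livers and still above every RD liver. Hba-a2 was also lowest there among the HCD livers, but lay below RD replicate 3. The Alas2 value of HCD replicate 1 lay below every RD liver, opposite to Hba-a1, Hbb-bs and Hbb-bt.

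**Figure D2:**
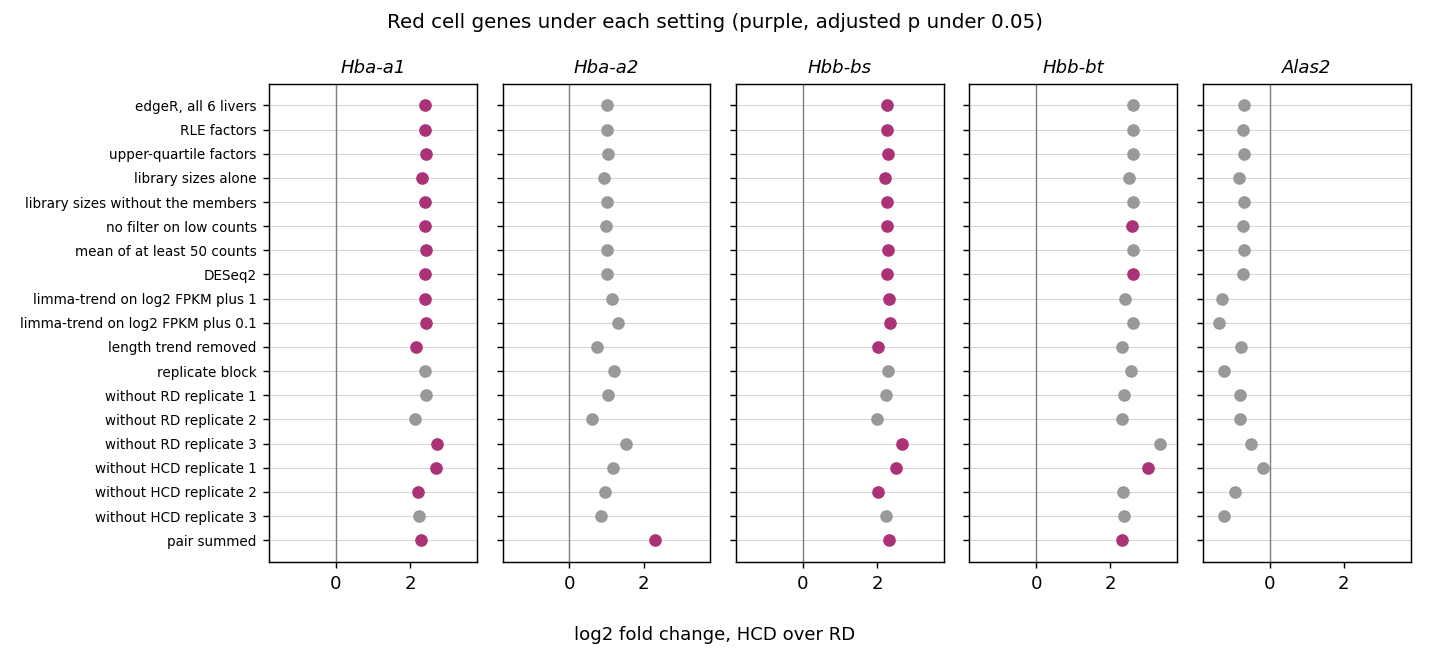
Log2 fold change of HCD over RD (x axis) for each gene under each setting of the analysis (y axis), in purple where the adjusted p was under 0.05 and in grey where it was not. Hba-a1 and Hbb-bs stay between 2.00 and 2.71 in every setting, while their side of the threshold differs between settings. Alas2 stays below 0 throughout and is nearest to 0 without HCD replicate 1, at -0.17.

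Per unit of gene length, the order of the 5 genes differed between the diets. With RD, Alas2 had the highest level, 74.0 ± 18.7 FPKM (fragments scaled to gene length and library total, SD, n = 3), followed by Hbb-bs with 49.8 ± 23.9 FPKM and Hba-a1 with 47.9 ± 20.3 FPKM. Hba-a2 had 7.32 ± 4.92 FPKM and Hbb-bt 5.23 ± 3.72 FPKM. Of the neighbours in this order, the ranges of Hba-a1 and Hba-a2 did not overlap, and those of the other neighbours did. Alas2 was above Hbb-bs within each of the RD livers. Which cells of the liver the Alas2 RNA came from was not tested.

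With HCD, Hba-a1 had 256.8 ± 98.3 FPKM (SD, n = 3) and Hbb-bs 244.8 ± 79.3 FPKM, and their ranges overlapped. Alas2 came next at 46.0 ± 36.3 FPKM, below every HCD value of both genes. Hbb-bt had 32.7 ± 18.0 FPKM and Hba-a2 15.1 ± 3.57 FPKM, and the ranges from Alas2 down to Hba-a2 overlapped between neighbours. By mean FPKM, Hba-a1 was number 1215 of the 20673 genes listed with RD and number 308 with HCD.

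The 4 globins together took a small share of each library. They made up 0.00589%, 0.00339% and 0.00848% of the counts in the RD livers. They made up 0.0180%, 0.0363% and 0.0294% in the HCD livers. The lowest HCD share was 2.12 times the highest RD share, and the HCD mean was 4.71 times the RD mean. Leaving out each liver in turn gave a ratio of means between 3.88, without RD replicate 2, and 6.01, without RD replicate 3. The ratio was 5.55 without HCD replicate 1.

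Alpha and beta globin RNA were at similar levels in each liver. The ratio of alpha to beta globin FPKM was 1.13, 0.964 and 0.941 in the RD livers and 0.908, 0.924 and 1.08 in the HCD livers. These values overlapped between the diets, while the summed globin FPKM ranged from 59.8 to 685.9 over the same livers.

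Within the alpha pair, Hba-a2 held 11.4%, 6.38% and 12.8% of the alpha counts in the RD livers. It held 6.09%, 3.91% and 4.60% in the HCD livers. Each HCD share was below each RD share, but the 95% Wilson interval of RD replicate 2 (3.91 to 10.3%) overlapped the HCD intervals, which reached 7.36%. These intervals cover counting error only. Within the beta pair, Hbb-bt held 6.41%, 8.19% and 10.4% of the beta counts in the RD livers and 6.46%, 11.1% and 13.2% in the HCD livers, which overlapped.

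Globin RNA and Alas2 RNA did not keep one ratio. The summed globin FPKM was 1.67, 0.953 and 1.72 times the Alas2 FPKM in the RD livers. It was 62.8, 11.7 and 8.56 times the Alas2 FPKM in the HCD livers. The lowest HCD ratio was 4.98 times the highest RD ratio, and HCD replicate 1 had the highest ratio of all and the lowest Alas2 FPKM.

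**Figure D3:**
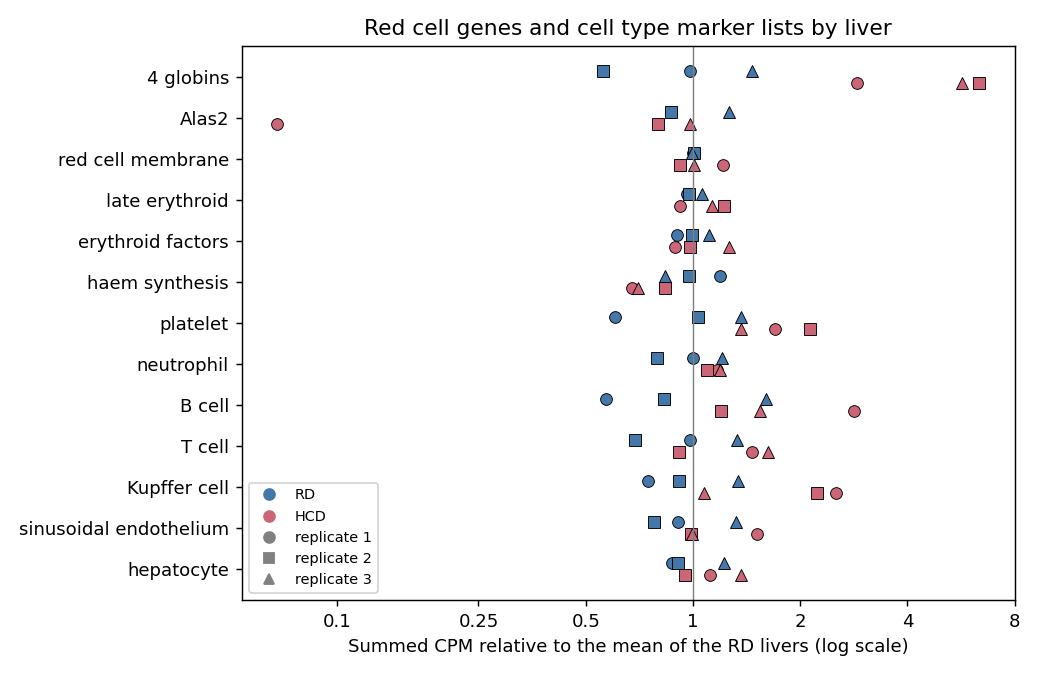
Summed CPM of the 4 globins, of Alas2 and of each marker list in each liver, relative to the mean of the 3 RD livers (log scale), with RD in blue, HCD in red and 1 symbol per replicate. The globins reach 2.89 to 6.36 times the RD mean in the HCD livers, and in every list shown at least 1 HCD liver lies within the range of the RD livers or below it.

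Most genes of the red cell membrane were sparse in these livers, whereas red cell genes that other tissues also use were not. None of the 7 embryonic and theta globin genes looked for was listed. Of 16 genes of the red cell membrane and its skeleton, 12 were listed, 8 of those had under 10 counts in every liver, and only 3 could be tested. Slc4a1, the band 3 anion exchanger and main membrane protein of the red cell, had 1, 0 and 4 counts in the RD livers and 1, 0 and 4 in the HCD livers. At this depth, 3 counts corresponded to 0.130 to 0.218 CPM by library size, and no difference in Slc4a1 was detectable.

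The 3 membrane genes that could be tested are also expressed outside red cells, and edgeR called none of them, with 2 at an unadjusted p under 0.05, a level that 20.9% of all genes tested reached, while DESeq2 called Gypc (adjusted p = 0.0356), as did edgeR without HCD replicate 2 (0.0329). Epb41, protein 4.1, had 93.7 ± 0.924 CPM (SD, n = 3) with RD and 90.2 ± 8.13 CPM with HCD. Gypc, glycophorin C, had 4.32, 4.32 and 4.81 CPM in the RD livers and 18.0, 4.13 and 11.2 CPM in the HCD livers, which overlapped (log2 fold change 1.31, edgeR adjusted p = 0.152). Sptb, beta spectrin, had low levels of 0.432, 0.905 and 0.607 CPM in the RD livers and 2.52, 1.51 and 2.75 CPM in the HCD livers. The diets did not overlap, and the log2 fold change was 1.81 (edgeR adjusted p = 0.0957).

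Of 16 genes typical of late erythroid cells, 13 were listed, 12 were tested and edgeR called none, with 2 at an unadjusted p under 0.05 and none called by DESeq2. Their median log2 fold change was 0.12, against 0.0074 over all genes tested. The most abundant were Prdx2, a peroxiredoxin, at a log2 fold change of 0.41 (edgeR adjusted p = 0.236), Bnip3l, a mitophagy receptor, at 0.04, and Ube2l6, a conjugating enzyme for ISG15, at -0.13. All of these are expressed in many tissues. The summed level of the list was 340.4 to 377.0 CPM with RD and 326.8 to 434.7 CPM with HCD.

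Of 11 erythroid factors and receptors, 9 were listed, 7 were tested and edgeR called none, with none at an unadjusted p under 0.05 and none called by DESeq2. The median log2 fold change was 0.19. Zfpm1, the GATA cofactor FOG1, had 0.31, Tfrc, the transferrin receptor, had -0.55, and Ldb1, an adaptor of the erythroid transcription complex, had -0.14. Klf1, the erythroid factor that binds CACCC motifs, had 42, 15 and 62 counts in the RD livers and 48, 39 and 23 in the HCD livers, which overlapped. The summed level was 127.6 to 156.1 CPM with RD and 126.1 to 178.3 CPM with HCD.

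Besides Alas2, all 8 genes of the haem pathway were tested, and edgeR called none, with 3 at an unadjusted p under 0.05, 1 higher and 2 lower, and none called by DESeq2. Alas1, the synthase used by the liver, had 653.1, 496.6 and 358.7 CPM in the RD livers. It had 132.1, 304.6 and 118.6 CPM in the HCD livers. Every HCD liver was below every RD liver, with a log2 fold change of -1.44 (standard error 0.38, edgeR adjusted p = 0.0803), and Alas1 was called lower without HCD replicate 2 at -2.01 (edgeR adjusted p = 0.0252) and without a filter on low counts at -1.45 (0.0186). Alad, the next enzyme of the pathway, had a log2 fold change of 0.50 (edgeR adjusted p = 0.126). Fech, ferrochelatase, which inserts the iron, had -0.05, with 169.5 ± 3.95 CPM (SD, n = 3) with RD and 163.2 ± 6.47 CPM with HCD. Without HCD replicate 1, edgeR called none of the membrane, late erythroid, erythroid factor and haem synthesis genes, of which 1, 3, 2 and 3 had an unadjusted p under 0.05.

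The genes that take up haemoglobin or haem, degrade haem or export its iron held 2 called genes of 10, both higher with HCD, against 1.95% of all genes tested that were called higher. Slc40a1, which encodes the iron exporter ferroportin, had 85.6, 98.2 and 98.6 CPM in the RD livers and 252.5, 224.1 and 151.2 CPM in the HCD livers. It rose by a log2 fold change of 1.15 (standard error 0.20), with an edgeR adjusted p of 0.0256. Blvrb, biliverdin reductase B, which is also abundant in red cells, had 95.5, 83.9 and 76.4 CPM with RD and 139.0, 180.6 and 189.97 CPM with HCD. It rose by a log2 fold change of 0.99 (standard error 0.16, edgeR adjusted p = 0.0225).

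The calls of these genes were also sensitive to single livers. Slc40a1 was called without HCD replicate 1 or 3 and lost its call without any other single liver, with edgeR adjusted p from 0.0544 without HCD replicate 2 to 0.130 without RD replicate 1. Blvrb was called without HCD replicate 1 or 2 and lost its call without RD replicate 1, 2 or 3 or HCD replicate 3, with edgeR adjusted p from 0.0753 to 0.122. The plasma carriers Hpx, hemopexin, and Hp, haptoglobin, had log2 fold changes of 0.26 and 0.47 and were not called. Ambp, the precursor of the haem-binding alpha-1-microglobulin, had 0.66 (edgeR adjusted p = 0.102), with no overlap between the diets, and was called by DESeq2. Without HCD replicate 1, edgeR called 3 genes of the list, with Ambp as the added one. The median over the list was 0.36, and 9 of the 10 values were above 0, against 50.7% of all genes tested. In edgeR, 4 of the 10 had an unadjusted p under 0.05, 3 higher and 1 lower with HCD, against 20.9% of all genes tested. The summed level of the list was 14295 to 15608 CPM with RD and 13479 to 26116 CPM with HCD, which overlapped.

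**Figure D4:**
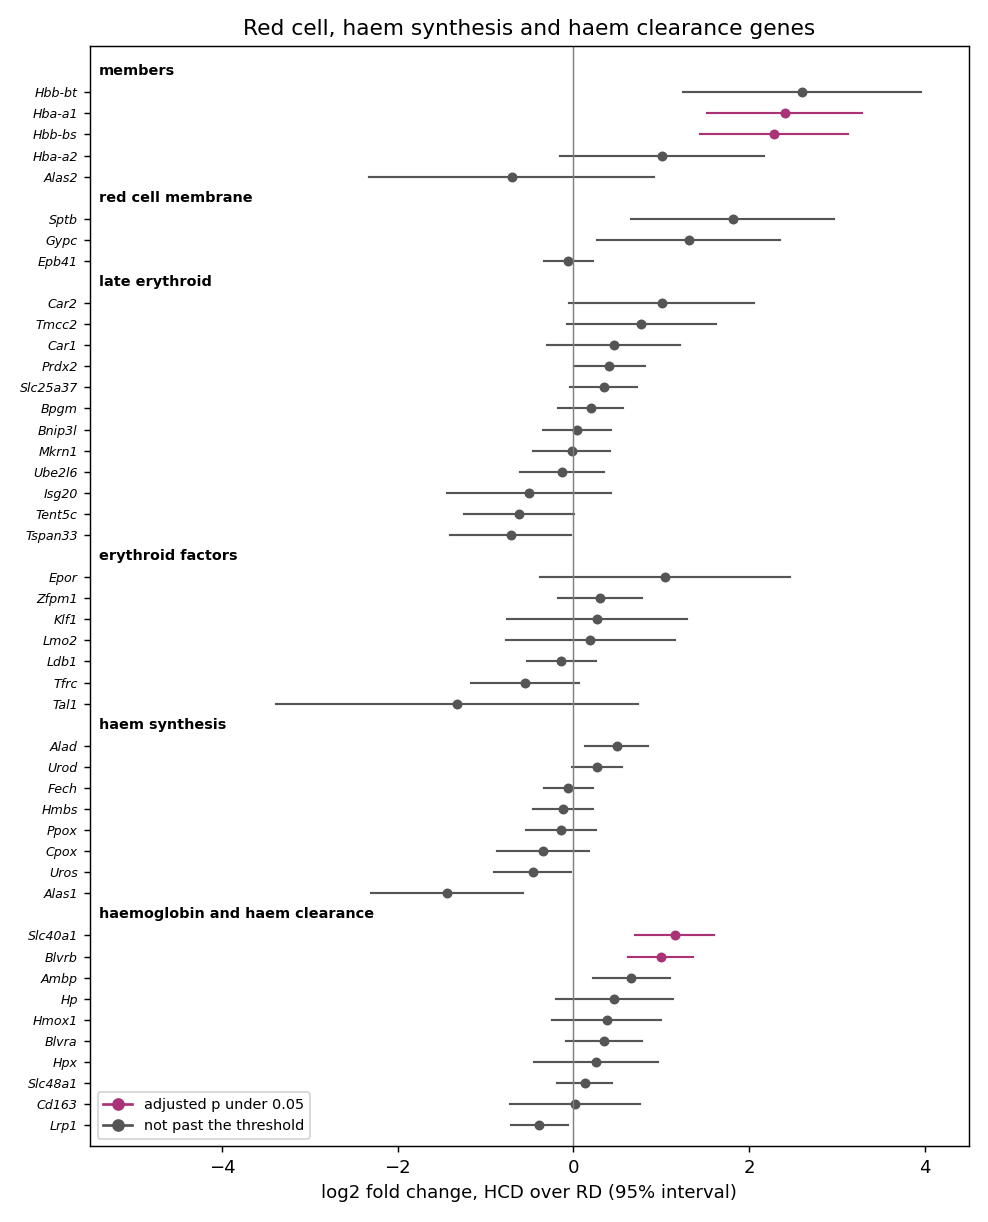
Log2 fold change of HCD over RD with its 95% interval (x axis, edgeR) for each tested gene (y axis) of the globin and Alas2 group and of 5 lists of red cell and haem genes, in purple where the adjusted p was under 0.05. Hba-a1, Hbb-bs, Slc40a1 and Blvrb are the 4 genes past the threshold, all above 0.

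Blood in a tissue brings platelets and white cells as well as red cells, and their markers were read beside the globins. The 10 platelet genes listed summed to 2.45 to 5.50 CPM with RD and 5.50 to 8.60 CPM with HCD, with an HCD mean 1.73 times the RD mean. Of the 2 that could be tested, Itga2b, the platelet integrin alpha chain, had a log2 fold change of 0.30, and Alox12, platelet lipoxygenase, had 3.12 at 0.0433 to 1.94 CPM (edgeR adjusted p = 0.0560). The 11 neutrophil genes summed to 4.04 to 6.15 CPM with RD and 5.57 to 6.07 CPM with HCD, a ratio of means of 1.15. These lists were at the edge of detection, with 6 platelet and 4 neutrophil genes under 10 counts in every liver.

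The lymphocyte lists were as low. The 8 B cell genes summed to 2.06 to 5.81 CPM with RD and 4.33 to 10.2 CPM with HCD, a ratio of means of 1.86, and the highest value was that of HCD replicate 1. The 8 T cell genes summed to 2.02 to 3.90 CPM with RD and 2.68 to 4.77 CPM with HCD, a ratio of means of 1.33. In each of these 4 blood cell lists the diets overlapped, for platelets only because HCD replicate 3 lay just below RD replicate 3, at 5.502 against 5.503 CPM, while the other HCD livers lay above every RD liver. In these lists edgeR called none of the 8 genes tested, with 1 at an unadjusted p under 0.05, while DESeq2 called Alox12. The ratios of means without HCD replicate 1 were 1.74 for platelets, 1.14 for neutrophils, 1.37 for B cells and 1.27 for T cells. Over all 6 livers, the ratio of means of the summed globin CPM was 4.98. Without HCD replicate 1, the ratio of means of the globin share of counts was 5.55. Whether the livers held different amounts of blood, or blood with a different share of reticulocytes, was not tested.

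Resident cells of the liver that handle red cells were read in the same way. The 6 Kupffer cell genes, markers of the macrophages that clear aged red cells, summed to 90.2 to 161.5 CPM with RD and 129.9 to 304.1 CPM with HCD, a ratio of means of 1.94. All 6 log2 fold changes were above 0 (median 0.91), against 50.7% of all genes tested. Of the 6, edgeR called none, with 3 at an unadjusted p under 0.05, against 20.9% of all genes tested. DESeq2 called Cd5l and Clec4f, where it called 992 of 14223 genes in all. Without a filter on low counts, edgeR called Cd5l (adjusted p = 0.0350). The ratio of means was 1.65 without HCD replicate 1, and then 1 of the 6 genes had an unadjusted p under 0.05. Slc40a1 is expressed in Kupffer cells as well as hepatocytes, and its highest and lowest HCD values were in the same livers as those of the Kupffer list. The part of Kupffer cell RNA in the Slc40a1 result was not tested. Among the HCD livers, the globins were lowest in replicate 1, where the Kupffer list was highest. The 6 genes of sinusoidal endothelium summed to 96.2 to 162.8 CPM with RD and 121.9 to 187.5 CPM with HCD, a ratio of means of 1.17, or 0.991 without HCD replicate 1.

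The globin transcripts are short, and fold changes varied with gene length in these libraries. Among the 1311 shortest genes tested (57 to 1436 bases), which include all 4 globins, the median log2 fold change was 0.32, with 102 called higher and 11 called lower. Among the 1310 longest genes the median was -0.17. After the length trend of each library was removed, Hba-a1 had a log2 fold change of 2.15 (edgeR adjusted p = 0.0243) and Hbb-bs 2.02 (0.0263). Hbb-bt had 2.32 (edgeR adjusted p = 0.0769), Hba-a2 0.74 and Alas2 -0.78, none of which passed the threshold. Of the 1311 shortest genes, 49 had a log2 fold change over 2.

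The genes closest to the globins in profile were sought by the root mean square difference, over the 6 livers, between a gene's log2 CPM deviations and the mean deviations of the 4 globins. Hbb-bs (0.174) and Hba-a1 (0.194) were closest to their own mean, followed by Hbb-bt (0.329) and Hba-a2 (0.533), whereas Alas2 was at 1.92. Outside the group, the nearest were Per1 (0.258), a clock gene, Abcg1 (0.308), a sterol efflux transporter, Atp8b5 (0.351), a phospholipid flippase, Fam83f (0.353) and the processed pseudogene Gm6807 (0.359). Of these, Abcg1 (log2 fold change 2.10, edgeR adjusted p = 0.0258) and Gm6807 (3.14, 0.0172) were called higher. Both lost their call without RD replicate 1, RD replicate 2 or HCD replicate 3, and Abcg1 also without HCD replicate 2, with edgeR adjusted p from 0.0503 to 0.128. Per1 had a log2 fold change of 1.67 (edgeR adjusted p = 0.0566) and was called without HCD replicate 1 (0.0297).

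The same measure for Alas2 gave Gm4956 (0.396), Pitx3 (0.400), Kdm5d (0.430), Serpina3k (0.458) and C9 (0.474) as the nearest genes. Each of them had its lowest value in HCD replicate 1. Kdm5d, a Y-linked histone demethylase gene, had 0 counts there and 106 to 310 counts in the other livers. Serpina3k, a serpin secreted by hepatocytes, had 1662 CPM there against 8872 to 15656 CPM elsewhere.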

How the data were processed

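Liver RNA of 3 RD and 3 HCD mice was sequenced and analysed by a service provider. The authors deposited read counts per gene, whole numbers without normalization, and FPKM, per kilobase of gene length and scaled to a library total that is not stated. The log2 fold changes and p-values that the authors deposited, from their own comparison, were not used. The submitters' processing notes name STAR, HTSeq, DESeq2, edgeR and GRCm39 without roles. Lengths computed from the ratio of counts to FPKM matched GENCODE M21 (GRCm38) within 0.1% for 94.8 to 95.0% of genes, and 20666 identifiers were found there, so positions are those of M21. Library kit, strand and read length are not given in the sources used here.

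Groups came from the sample titles. Counts were tested with edgeR 4.0.16 (R 4.3.3), using TMM factors, filterByExpr by diet and a quasi-likelihood F test of diet without covariates, with Benjamini-Hochberg adjustment over 13105 genes and a threshold of 0.05. The biological coefficient of variation was 27.8%. Exact permutation tests used log2(CPM + 0.5). The scripts were tested on simulated data. Depth was 13771630 to 23129576 counts per library. Alternatives used DESeq2 1.42.0, limma-trend (limma 3.58.1) on log2(FPKM + 1) or log2(FPKM + 0.1), other scalings and filters, removal of a loess length trend (span 0.5), summed globin pairs and each liver left out. The alternatives for the globin share, the lists and genes outside the group were chosen after seeing the data.

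The 5 genes and the 13 lists were chosen with earlier results of these data known. Named genes are the 5 genes, the called genes and up to 3 most abundant genes of each list, and the 5 genes nearest in profile to the globins and to Alas2. Slc4a1 and Klf1, and the Y-linked genes and Xist, were named after their values were seen. Tables were prepared with Python 3.11.15. Promoter windows are from RefSeq and coding sequences from GENCODE M21.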

Additional observations from a re-analysis of the deposited data

How the results depend on the processing

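The number of called genes was 428, and it was 649 without a filter on low counts, 992 with DESeq2, 251 with the length trend removed and 136 with a replicate block. Leaving out each liver gave 36 to 335, with 36 without RD replicate 1, 51 without RD replicate 2, 146 without RD replicate 3 and 103 without HCD replicate 3. With library sizes alone, 163 genes were called higher and 170 lower, in place of 255 and 173. Of the 40 other red cell and haem genes tested, 2 were called, against 3.27% of all genes tested. With library sizes alone 1 was called, and with DESeq2 4 of 43, against 992 of 14223 genes. In edgeR with the replicate block 0 were called (12 at an unadjusted p under 0.05). When each liver was left out, 0 to 3 were called. The replicate block moved Hba-a1 to 2.39 and Hbb-bs to 2.31, both at an edgeR adjusted p of 0.0540. The correlations of deviations between livers of the same replicate number were -0.084, 0.119 and -0.030. Those between livers of different numbers ranged from -0.143 to 0.147. Such values cannot decide whether the livers were paired, and the labels do not say. Leaving out each liver gave log2 fold changes of 2.13 to 2.71 for Hba-a1, 2.00 to 2.68 for Hbb-bs and 2.32 to 3.34 for Hbb-bt. Hbb-bt passed the threshold without a filter (2.59) and with DESeq2 (2.61). The summed beta pair (2.32) and the summed alpha pair (2.31) passed too, but most of their counts are those of Hbb-bs and Hba-a1, so these values do not speak for Hbb-bt or Hba-a2. No direction of the 5 genes reversed in any of these alternatives. The cause of the lost calls was not tested. With 3 livers per diet, exact tests of single genes cannot go below 0.1, and 9 of the 12 listed red cell membrane genes had too few counts to test.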
